A study of Mus musculus with 48 samples.

Results

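The genes described here are the interleukin-6 (IL-6) family cytokines Il6, Il11, Lif and Clcf1, the receptor chains Il6ra, Il6st, Osmr and Lifr, the transcription factor Stat3 and the feedback inhibitor Socs3. They were chosen by name, with earlier results of these data known. They make up 10 of the 50763 genes in the count tables, and all 10 were tested in each of the 4 mouse lines. Counts of members that passed, set beside the share of all genes, are therefore descriptions and not tests of the family. RNA-seq of poly-A RNA was made from 48 libraries of primary mouse cells, 3 in each of 16 groups. Every mouse was heterozygous for an allele that encodes a Cre-dependent BERKY3 biosensor of an active G protein. Brain astrocytes came from Gas*-BERKY3 mice, and lung fibroblasts came from Gai*-BERKY3, Gaq*-BERKY3 or Ga13*-BERKY3 mice. Cells were transduced with AAV2/1-CMV-Cre, an adeno-associated vector in which the CMV promoter drives Cre recombinase and which switches the biosensor on, or with its empty counterpart AAV2/1-CMV-empty. For the last 90 min they were kept in fresh medium with an agonist or in fresh medium alone, called stimulated and unstimulated below. The agonist was 1 µM isoproterenol, which activates beta-adrenergic receptors, for astrocytes, and 100 µM TRAP-6, a peptide agonist of thrombin receptors, for fibroblasts. The age of the mice is not given in the sources used here. Each line thus had 4 groups, stimulated with Cre virus, stimulated with empty virus, unstimulated with Cre virus and unstimulated with empty virus. All cells carried a biosensor allele, so an effect of Cre itself and an effect of the biosensor cannot be told apart. Cell type and agonist differ between the Gas line and the other 3, so those lines were not tested against it. The virus dilution and the cells per well differ too, at 500-fold and 430000 for Gas and 1000-fold and 160000 for the others. The labels give only replicate numbers, with no word on separate cultures or animals, so p-values measure the spread between these libraries, which may be technical.

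IL-6 family cytokines signal through receptor complexes that share the chain Il6st. IL-6 and IL-11 bind their own receptor chains, Il6ra and Il11ra1, before they join Il6st, whereas Lif pairs Lifr with Il6st, oncostatin M pairs Osmr with Il6st, and Clcf1 acts through Cntfr, Lifr and Il6st. The receptors activate Janus kinases and Stat3, and Stat3 induces Socs3, whose protein binds Il6st and switches the kinases off. Cultured astrocytes are known to make IL-6 under adrenergic stimulation, Lif is a signal between astrocytes and neighbouring glia, and lung fibroblasts are a known source of IL-6, IL-11 and Lif.

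Promoters of Il6, Il11, Lif and Socs3 are shown because these are the cytokines that changed most in astrocytes and the feedback inhibitor of the pathway. Each sequence runs from 250 bases before to 50 bases after the RefSeq start on mouse GRCm38.p6, 5′ to 3′ on the gene's strand, and capitals mark the motifs found.
Il6, chr5:30012864-30013163, plus strand: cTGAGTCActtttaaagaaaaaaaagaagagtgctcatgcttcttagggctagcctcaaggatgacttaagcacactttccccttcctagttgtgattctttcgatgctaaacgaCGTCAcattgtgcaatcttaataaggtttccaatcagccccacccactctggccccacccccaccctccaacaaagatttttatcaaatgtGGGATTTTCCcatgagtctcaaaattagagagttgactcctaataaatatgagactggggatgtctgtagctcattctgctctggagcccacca
Il11, chr7:4778092-4778391, minus strand: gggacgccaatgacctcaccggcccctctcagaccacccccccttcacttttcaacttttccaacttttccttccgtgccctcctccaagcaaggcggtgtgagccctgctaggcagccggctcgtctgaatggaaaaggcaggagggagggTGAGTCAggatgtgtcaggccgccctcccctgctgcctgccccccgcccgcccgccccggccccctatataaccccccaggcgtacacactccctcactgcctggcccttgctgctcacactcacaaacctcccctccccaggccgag
Lif, chr11:4257318-4257617, plus strand: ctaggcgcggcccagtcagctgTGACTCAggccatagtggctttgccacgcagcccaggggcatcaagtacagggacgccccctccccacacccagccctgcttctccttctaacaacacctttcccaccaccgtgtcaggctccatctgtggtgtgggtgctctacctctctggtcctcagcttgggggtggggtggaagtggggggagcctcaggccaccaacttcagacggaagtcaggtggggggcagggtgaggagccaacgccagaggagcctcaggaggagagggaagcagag
Socs3, chr11:117969317-117969616, minus strand: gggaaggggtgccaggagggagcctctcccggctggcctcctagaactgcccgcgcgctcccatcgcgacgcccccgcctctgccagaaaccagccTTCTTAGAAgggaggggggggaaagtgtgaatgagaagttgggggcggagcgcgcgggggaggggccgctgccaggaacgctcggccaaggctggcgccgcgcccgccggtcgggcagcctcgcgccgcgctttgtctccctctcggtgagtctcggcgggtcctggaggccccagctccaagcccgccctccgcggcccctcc
The motifs searched on both strands were the cAMP response element (CRE) TGACGTCA, its short form TGACG, the STAT element TTCNNNGAA, the AP-1 element TGANTCA, the NF-kB element and the CArG box. The short CRE form lies within the full CRE. Among 32851 promoter windows of the same length, 1.79% held the full CRE, 20.8% the short form, 8.3% the STAT element, 7.81% the AP-1 element, 4.51% the NF-kB element and 1.63% the CArG box. In Il6 the short CRE form was found on the minus strand, as CGTCA, at -135 to -131 from the start, with an AP-1 element at -249 to -243 and an NF-kB element at -44 to -35. In Il11 and in Lif an AP-1 element stood at -98 to -92 and at -228 to -222, as TGAGTCA and TGACTCA. Socs3 held a STAT element, TTCTTAGAA, at -154 to -146. Of the other members, Il6ra held the short CRE form at -236 to -232 and Osmr an AP-1 element at 4 to 10. No searched motif lay in the windows of Il6st, Lifr or Stat3 or in the window of the other annotated Il11 start. In all, 9 of the 10 members were matched to a promoter, and Clcf1 was not.

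Library totals were 15.6 M to 42.6 M assigned counts, with a median of 19.3 M, and levels are given as CPM, the counts of a gene per 1e+06 counts of its library. Transcripts of the biosensor stood at 19.1 to 137 CPM in the 24 Cre libraries and at 0 to 1.05 CPM in the 24 empty-virus libraries. In the Cre libraries the level was 19.1 to 27.3 CPM in astrocytes and 74.3 to 137 CPM in fibroblasts, without overlap. Summed astrocyte markers reached 8860 to 9730 CPM in the astrocyte libraries, with Gfap at 3613 to 4137 CPM, and summed fibroblast markers reached 40550 to 63550 CPM in the fibroblast libraries. Of the astrocyte markers, S100b stood at 8.42 to 13.05 CPM and Slc7a10 at 0.981 to 2.39 CPM there. The astrocyte libraries also held 290 to 332 CPM of 13 microglia and macrophage markers and 5008 to 6292 CPM of 8 fibroblast markers. Smooth muscle and pericyte markers summed to 1913 to 2436 CPM in them, oligodendrocyte lineage markers to 788 to 997 CPM and neuron markers to 512 to 559 CPM. Foxj1 had 299 to 353 CPM. The same macrophage markers summed to 186 to 278 CPM in Gai, 81.5 to 115 CPM in Gaq and 46.9 to 61.8 CPM in Ga13 fibroblasts. Which cells of a culture made a transcript was not measured, and in such bulk samples fewer cells of a type and less RNA per cell cannot be told apart. The 4 replicate 1 libraries of the Gai line stood apart from replicates 2 and 3. Their fibroblast markers summed to 53350 to 56340 CPM, against 40550 to 45480 CPM in the other 8 Gai libraries, and their macrophage markers to 240 to 278 CPM, against 186 to 218 CPM.

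Il6 was the member whose level differed most between the cell types. Per kilobase (kb) of exon, which allows levels of different genes to be compared, Il6 averaged 0.599 CPM over the 12 astrocyte libraries and 42.8 CPM over the 36 fibroblast libraries, and its highest astrocyte library, at 1.41 CPM per kb, lay below its lowest fibroblast library, at 18.8 CPM per kb. Lif was the most abundant cytokine of the 4 on this scale in both cell types, with mean levels of 35.0 CPM per kb in astrocytes and 82.3 CPM per kb in fibroblasts. Clcf1 ran the other way, with a mean level of 29.4 CPM per kb in astrocytes and 12.8 CPM per kb in fibroblasts and no overlap between the libraries of the cell types. The signal chain Il6st, at 45.5 and 67.0 CPM per kb, and Stat3, at 43.9 and 36.3 CPM per kb, were high in astrocytes and fibroblasts alike. The ligand-binding chain Il6ra, at 3.79 and 1.80 CPM per kb, and Lifr, at 1.97 and 1.11 CPM per kb, were low in the same order of cell types. Osmr averaged 11.6 CPM per kb in astrocytes and 23.7 CPM per kb in fibroblasts, and Socs3 averaged 20.5 and 18.7 CPM per kb. These differences between cell types are descriptions, since astrocytes and fibroblasts came from different lines and were counted in separate tables.

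**Figure D1:**
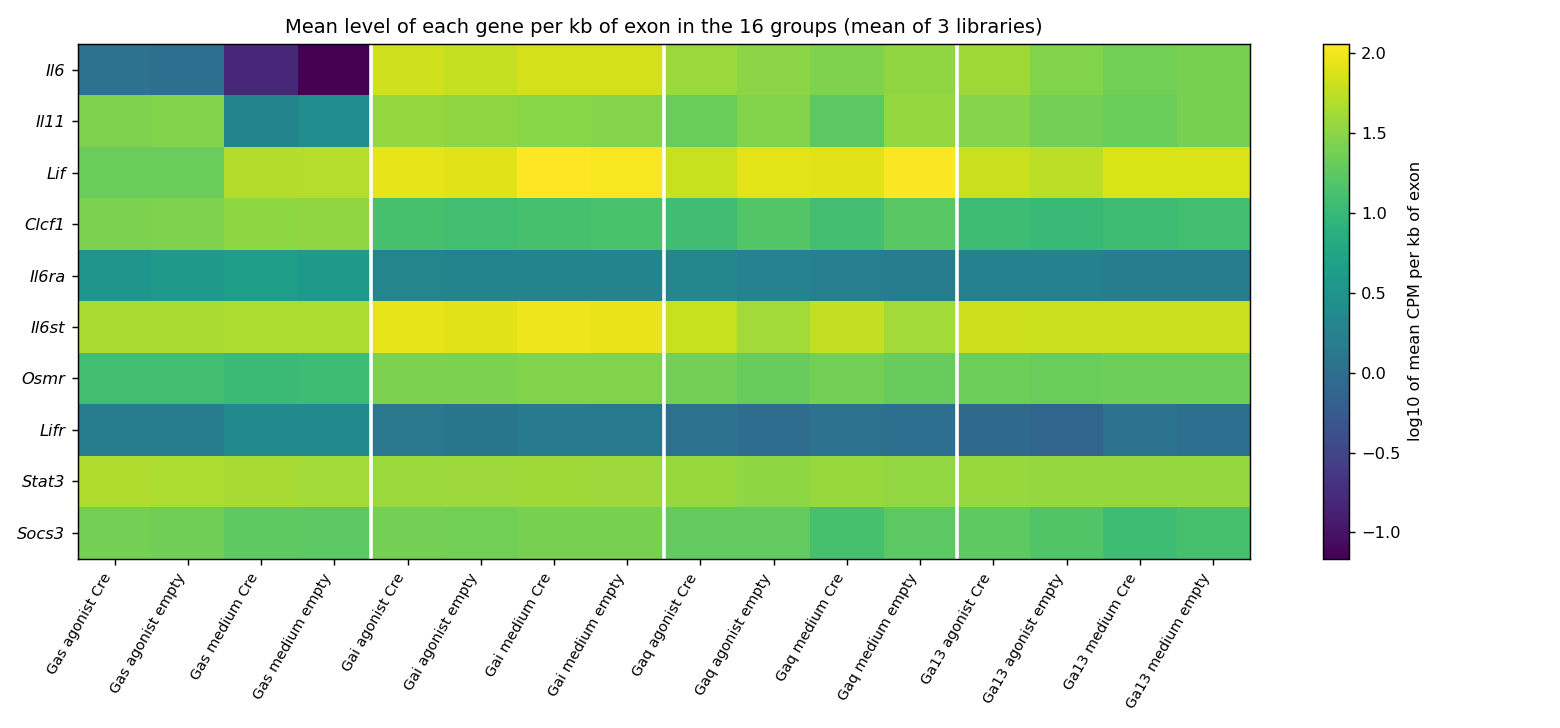
Mean level of each of the 10 genes in the 16 groups, as log10 of CPM per kb of exon (colour), with 3 libraries a group; white lines separate the Gas, Gai, Gaq and Ga13 lines, and within each line the groups run from stimulated with Cre virus to unstimulated with empty virus. Il6 in unstimulated astrocytes is the darkest part of the map, Il11 is darker in unstimulated than in stimulated astrocytes, and Lifr and Il6ra are dark and Il6st bright in every line.

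The order of the 16 groups differed by gene. For Il6 the 12 fibroblast groups ranked above the 4 astrocyte groups, from 173 ± 62.3 CPM (SD, n = 3) in unstimulated Gai cells with empty virus to 56.7 ± 12.5 CPM in unstimulated Ga13 cells with Cre virus, and each neighbour in that run overlapped the next. For Il11 the stimulated astrocyte groups, at 57.7 ± 7.58 and 56.4 ± 12.3 CPM with empty and Cre virus, stood among the fibroblast groups, and only the unstimulated astrocyte groups lay apart, at 5.13 ± 1.05 and 4.06 ± 1.13 CPM. For Lif the lowest 4 groups were the astrocyte groups, and a gap without overlap separated the unstimulated from the stimulated ones. For Clcf1 and Lifr the 4 astrocyte groups were the highest, although stimulated astrocytes overlapped the Gai fibroblasts in Lifr. Il6st and Osmr were highest in the 4 Gai groups, whose neighbours in rank overlapped each other. The lowest Il6st level was that of Gaq cells with empty virus, at 454 ± 16.5 CPM when stimulated and 455 ± 21.4 CPM when unstimulated. For Stat3 each group overlapped the next in rank but for the last, and its means spanned 311 to 447 CPM. Socs3 means spanned 32.5 CPM in unstimulated Ga13 cells with Cre virus to 72.4 CPM in unstimulated Gai cells with Cre virus.

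The response of astrocytes to isoproterenol was tested as stimulated against unstimulated cells, as a mean over both viruses. The test was edgeR's quasi-likelihood test, with Benjamini-Hochberg adjustment over all 18103 genes tested and the biosensor row. Il6 and Il11 had estimated mean rises of more than 10-fold, Socs3 and Stat3 rose by less, and Lif, Lifr and Clcf1 fell. Thus 7 of the 10 members passed an adjusted p of 0.05, 4 of them higher and 3 lower, where 23.3% of all genes passed, 11.7% higher and 11.5% lower. The members' median log2 change was 0.09, against -0.00 for all genes.

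Il6 had 2.44, 2.48 and 3.42 CPM in stimulated astrocytes with Cre virus, against 0.674, 0.283 and 0.231 CPM in unstimulated ones with Cre virus. In cultures with empty virus it had 2.89, 2.32 and 2.23 CPM when stimulated, against 0.0928, 0.120 and 0.287 CPM when unstimulated. Every stimulated library lay above every unstimulated one. The rise was 3.44 ± 0.30 on the log2 scale (SE), 10.8-fold, with an adjusted p of 1.14e-11. It rests on few reads, 188 and 173 counts over the 3 stimulated libraries of each virus, against 28 and 10 counts in the unstimulated ones. Without replicate 3 of the unstimulated empty-virus group, the highest of that group, the change with empty virus was 4.53 on the log2 scale, against 3.88 ± 0.46 with it. The change with Cre virus was smaller, at 2.70 to 3.45 over the fits with 1 library left out. Stimulated astrocytes thus still held far less Il6 than any fibroblast library, where the lowest value was 45.7 CPM.

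Il11 had 47.3, 51.6 and 70.3 CPM in stimulated astrocytes with Cre virus, against 2.76, 4.78 and 4.66 CPM in unstimulated ones. With empty virus the values were 60.8, 49.1 and 63.3 CPM in stimulated cells, against 4.04, 6.14 and 5.21 CPM in unstimulated cells. The groups did not overlap, and the stimulated level lay within the range of the fibroblast libraries, 33.4 to 97.8 CPM. The rise was 3.67 ± 0.16 on the log2 scale, 12.7-fold, with an adjusted p of 4.96e-08.

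Lif, the most abundant of the cytokines at rest, moved the other way. It had 84.5, 85.7 and 106 CPM in stimulated astrocytes with Cre virus, against 203, 190 and 239 CPM in unstimulated ones. The empty-virus libraries had 85.2, 90.0 and 95.2 CPM in stimulated cells, against 217, 179 and 250 CPM in unstimulated cells. All 6 stimulated libraries lay below all 6 unstimulated ones, and Lif fell by 1.18 ± 0.10 on the log2 scale, 2.26-fold, with an adjusted p of 2.05e-05. Per kb of exon, the Il11 level was 27.1 CPM in stimulated cells with Cre virus, against 1.95 CPM in unstimulated ones, and the Lif level was 21.1 CPM against 48.4 CPM. With empty virus the Il11 level per kb was 27.7 CPM in stimulated cells, against 2.46 CPM in unstimulated cells, and the Lif level 20.7 CPM against 49.5 CPM. By group mean per kb, Il11 thus lay below Lif in the unstimulated groups and above it in the stimulated ones. In stimulated cells with Cre virus the libraries overlapped, at 22.7 to 33.8 CPM per kb for Il11 and 19.4 to 24.3 for Lif. Without division by exon length Lif stayed above Il11 in stimulated cells, at 92.0 against 56.4 CPM with Cre virus and 90.1 against 57.7 CPM with empty virus.

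Clcf1 had 97.3, 95.6 and 104 CPM in stimulated astrocytes with Cre virus, against 110, 123 and 134 CPM in unstimulated ones. Its empty-virus libraries had 100.3, 99.7 and 106 CPM in stimulated cells, against 134, 107 and 133 CPM in unstimulated cells. No stimulated library exceeded an unstimulated one. Clcf1 fell by 0.25 ± 0.05 on the log2 scale, with an adjusted p of 0.00124 over both viruses. Within a virus its call was less firm, since it was lost in 4 of 12 fits with 1 library left out for Cre virus (adjusted p up to 0.125), those without replicate 1 or 2 of the stimulated or replicate 2 or 3 of the unstimulated Cre group. For empty virus it was lost in 8 of 12 (up to 0.218) and held without replicate 2 of the unstimulated empty group, replicate 1 or 3 of the unstimulated Cre group or replicate 3 of the stimulated Cre group. Clcf1 shares exon sequence with another annotated gene on its strand, so its counts are uncertain.

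**Figure D2:**
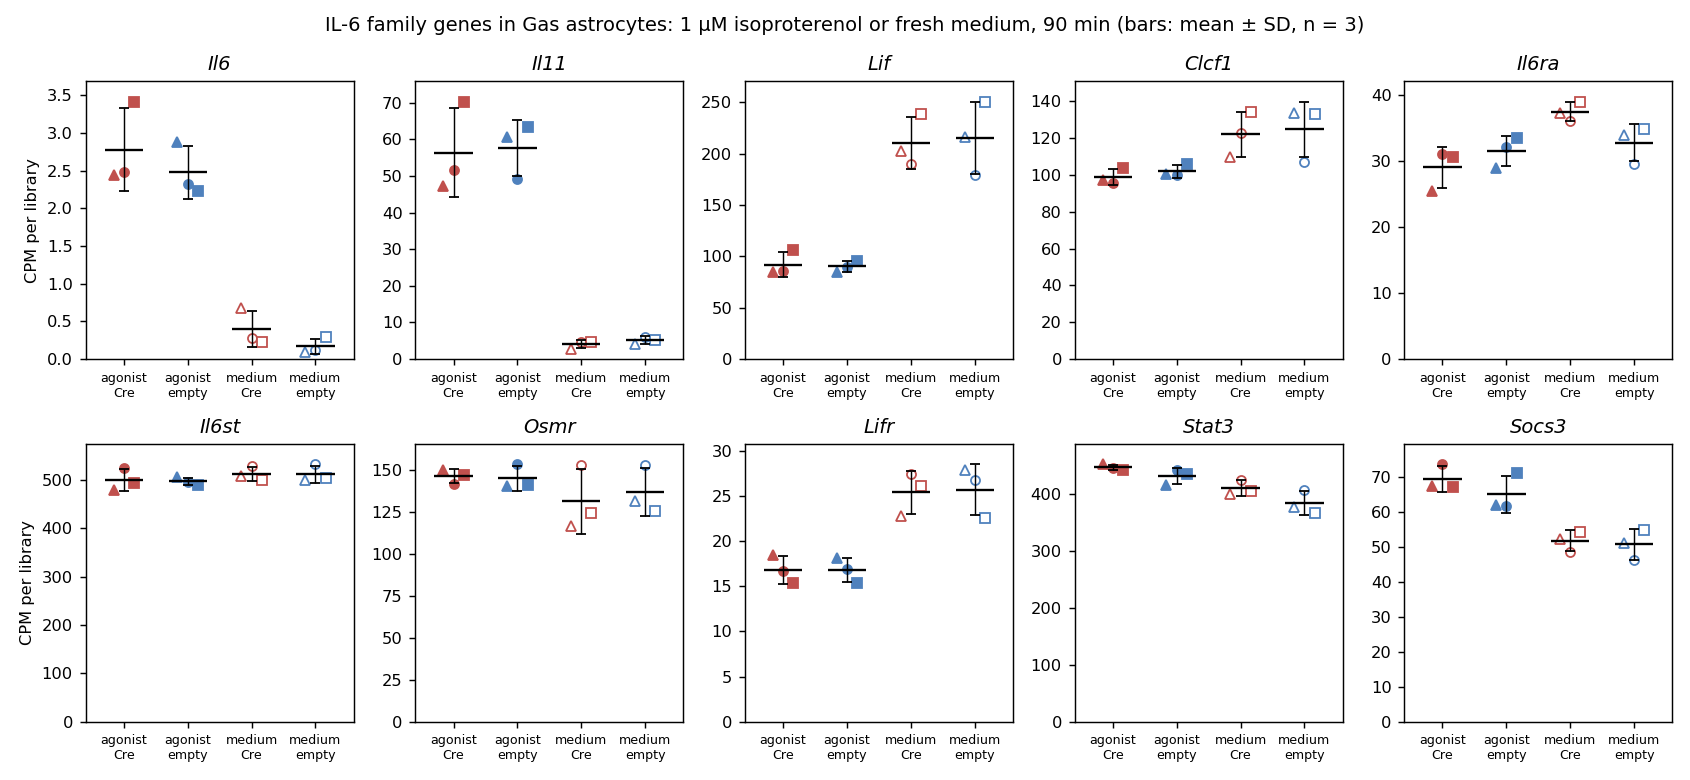
Level of each gene in every astrocyte library, in CPM on an axis that starts at 0, by agonist (filled) or medium alone (open) and by virus (red Cre, blue empty); triangles, circles and squares are replicates 1, 2 and 3, and bars are the mean ± SD of 3 libraries. The stimulated groups lie above the unstimulated ones for Il6, Il11 and Socs3 and below them for Lif, Lifr and Clcf1, while Il6st overlaps throughout at 479 to 533 CPM.

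Among the receptor chains, Lifr fell and the shared chain Il6st did not pass the test. Lifr, the chain that Lif and Clcf1 use, had 18.4, 16.7 and 15.3 CPM in stimulated astrocytes with Cre virus, against 22.8, 27.4 and 26.1 CPM in unstimulated ones. For empty virus the Lifr values were 18.1, 17.0 and 15.4 CPM in stimulated cells, against 27.9, 26.8 and 22.6 CPM in unstimulated cells. The groups did not overlap, and the fall was 0.56 ± 0.07 on the log2 scale, 1.48-fold, with an adjusted p of 8.09e-08 (log2 change -0.56). The change of Il6st was 0.01 ± 0.03, with a 95% interval of -0.06 to 0.08 and an adjusted p of 0.884. Osmr differed by 0.17 ± 0.06 with an adjusted p of 0.0525, above the threshold, and passed in each alternative fit of all libraries. Its adjusted p was 0.0492 with DESeq2's size factors, 0.0218 with DESeq2, 0.000331 with no filter on low counts and 0.00351 with the replicate number as a block. Osmr also passed without replicate 2 of the unstimulated group with Cre virus (adjusted p 0.000161) and without replicate 2 of the one with empty virus (0.00303). Il6ra differed by -0.16 ± 0.06 with an adjusted p of 0.056. With the replicate number as a block it passed (adjusted p 0.0394). It also passed without replicate 2 of the unstimulated empty group, replicate 3 of the stimulated empty group or replicate 2 or 3 of the stimulated Cre group (adjusted p 0.0248 to 0.0436). Il6ra fell by 0.32 ± 0.08 with Cre virus (adjusted p 0.00676, or 0.0806 without replicate 1 of the stimulated group) and differed by 0.00 ± 0.09 with empty virus. That difference between viruses, -0.32 ± 0.12, had an adjusted p of 1. Il6ra lies across from exons of another gene on the opposite strand, and strandedness of the counting is not given in the sources used here.

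Stat3 and Socs3 rose by small amounts. Socs3 had 67.6, 73.8 and 67.3 CPM in stimulated astrocytes with Cre virus, against 52.4, 48.7 and 54.5 CPM in unstimulated ones. Socs3 libraries with empty virus had 62.2, 62.0 and 71.3 CPM when stimulated, against 51.1, 46.3 and 54.9 CPM when unstimulated. The groups did not overlap, and the rise was 0.44 ± 0.05 on the log2 scale, 1.36-fold, with an adjusted p of 6.98e-09. Stat3 had 452, 446 and 442 CPM in stimulated cells with Cre virus, against 400, 426 and 406 CPM in unstimulated ones, and 415, 443 and 435 CPM against 378, 407 and 367 CPM with empty virus. Within each virus its stimulated libraries all lay above the unstimulated ones, and it rose by 0.19 ± 0.03, 1.14-fold, with an adjusted p of 3.26e-05. With Cre virus alone its rise of 0.17 ± 0.05 lost the call without replicate 1 or 3 of the unstimulated group or replicate 2 of the stimulated group (adjusted p 0.0506 to 0.0623). Stat3 exons overlap those of Stat5a on the other strand, which adds a further uncertainty to both counts.

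**Figure D3:**
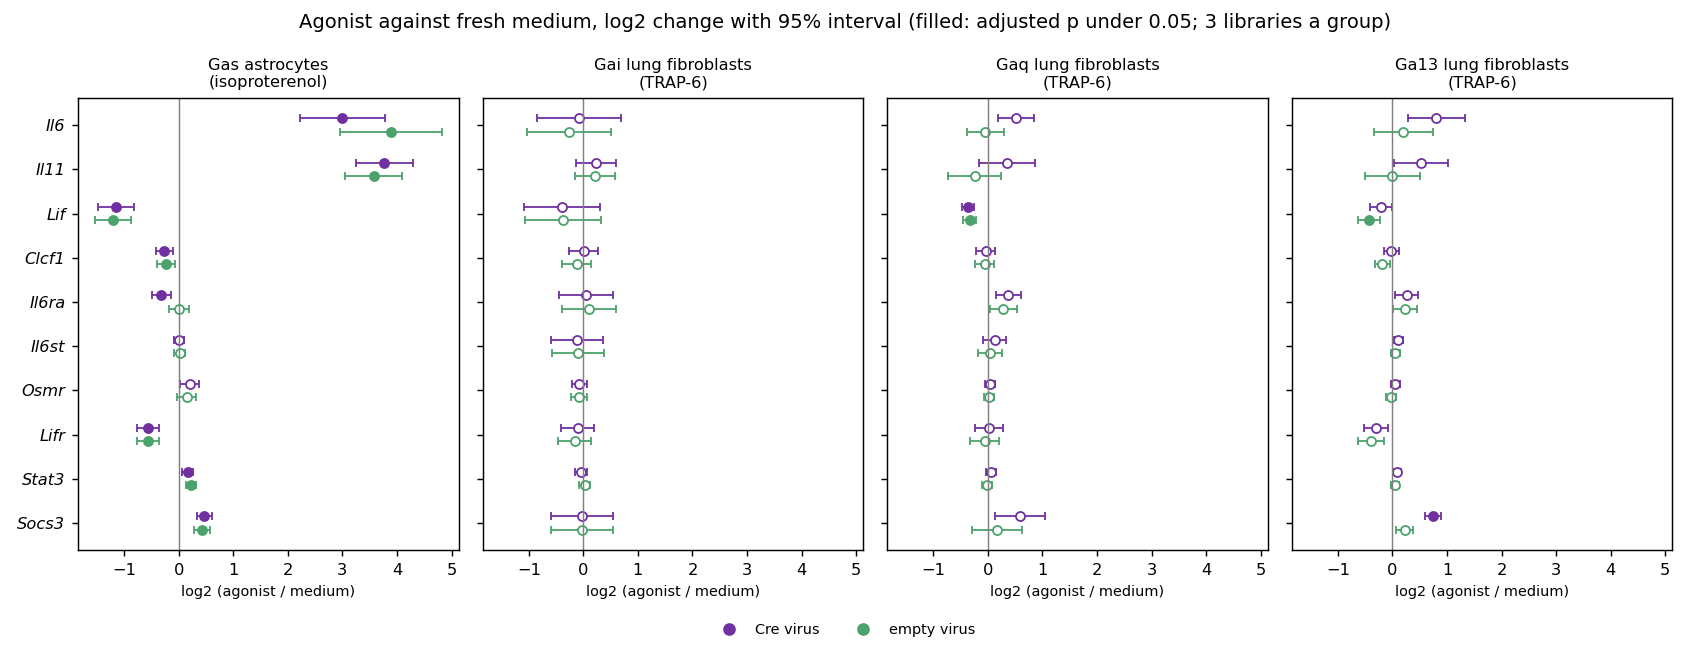
Log2 change of each gene in stimulated against unstimulated cells, by line and virus (purple Cre, green empty), with 95% intervals; filled points passed an adjusted p of 0.05 and each group had 3 libraries. Il6 and Il11 stand near 3 to 4 in Gas astrocytes and within 1 of 0 in the fibroblast lines, and Lif lies below 0 in every line.

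No difference between the viruses in a member's astrocyte response passed the test. The response with Cre virus minus that with empty virus passed the test for 0 of 10 members and 0% of all genes, with 1 member, Il6ra, at an unadjusted p under 0.05, which 3.49% of all genes reached, and 0 calls by DESeq2. For Il6 this difference was -0.89 ± 0.66, with a 95% interval of -2.23 to 0.45, a wide interval that goes with its low counts. For Il11 it was 0.19 ± 0.35, for Lif 0.04 ± 0.20 and for Socs3 0.05 ± 0.10. Within a virus, 8 of 10 members passed with Cre virus, where 14.3% of all genes passed, and 7 of 10 with empty virus, where 14.7% passed. Cre against empty virus gave 0 member calls in stimulated and in unstimulated astrocytes, by edgeR and by DESeq2, where 0.0166% and 0.00552% of genes passed. At an unadjusted p under 0.05 there were 0 members among stimulated cells, where 3.71% of all genes reached it, and 2 among unstimulated cells, where 6.45% did.

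The rest of the pathway was counted from lists that were also chosen with earlier results of these data known. Their counts are set beside the 11.7% of all genes that rose and the 11.5% that fell, as a description. Of 14 other JAK and STAT inhibitors tested, 5 fell and 0 rose in stimulated astrocytes, with a list median of -0.13. They were led by the Socs3 relatives Socs5 (-0.67 ± 0.05, adjusted p 7.89e-13), Socs6 (-0.38 ± 0.06, 1.03e-06) and Socs4 (-0.25 ± 0.04, 2.49e-05) and by the STAT inhibitor Pias1 (-0.29 ± 0.05, 3.85e-05), and Cish, another Socs relative named after its value was seen, fell by 0.54 ± 0.11 (0.00031). Among 13 signal transducers, those that fell were Stat5a (-0.42 ± 0.09, adjusted p 0.000894) and Stat5b (-0.24 ± 0.06, 0.0025). Of 3 other receptor chains tested, Cntfr rose (0.40 ± 0.07, adjusted p 1.01e-05), the chain that binds Clcf1. None of the 5 other family cytokines tested passed edgeR's test, and 0 had an unadjusted p under 0.05. Known Stat3 target genes moved both ways, with 8 of 19 higher and 6 lower and a median of 0.10. Cebpb (2.14 ± 0.06, adjusted p 4.48e-18), Junb (1.73 ± 0.04, 5.14e-25) and Cebpd (1.25 ± 0.05, 2.16e-20), all transcription factors, rose, and the growth regulator Myc fell by 1.16 ± 0.06 (1.55e-17). Several of these genes are also known targets of other pathways.

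Markers of other cells were counted in the same libraries. Summed microglia and macrophage markers were 310 to 332 and 302 to 319 CPM in stimulated astrocyte cultures with Cre and empty virus, against 290 to 319 and 294 to 308 CPM in unstimulated ones. Of the 13 markers, 4 rose and 1 fell, all by 0.20 or less on the log2 scale, and none was at 0. Fibroblast markers summed to 5008 to 6292 and 5455 to 6248 CPM, against 5048 to 5379 and 5204 to 5445 CPM, and 3 of 8 rose, Thy1 by 0.52 ± 0.05, Fn1 by 0.22 ± 0.06 and Pdgfra by 0.12 ± 0.04. Astrocyte markers were 9095 to 9730 and 8897 to 9393 CPM, against 9124 to 9358 and 8860 to 9372 CPM, and 4 of 10 rose. Of 6 smooth muscle and pericyte markers 2 fell, Myh11 by 0.69 ± 0.16 and Cspg4 by 0.27 ± 0.05, of 7 oligodendrocyte lineage markers tested 2 rose and 1 fell, and of 6 neuron markers 1 rose. Summed oligodendrocyte lineage markers were also 899 to 930 CPM in stimulated and 904 to 997 CPM in unstimulated cultures with Cre virus, against 788 to 853 and 803 to 856 CPM with empty virus. The part of these cells in the cytokine changes was not tested.

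In lung fibroblasts the question was which members changed under TRAP-6. Lif fell in Gaq and Ga13 cells, Socs3 rose in Ga13 cells, Il6ra rose in Gaq and Ga13 cells and Lifr fell in Ga13 cells. As a mean over both viruses this was 2 of 10 members in Gaq, where 5.61% of 15528 genes passed, and 4 of 10 in Ga13, where 8.38% of 15835 genes passed. In Gai it was 0 of 10 by edgeR and by DESeq2, where 1.12% of 15980 genes passed, and 0 members had an unadjusted p under 0.05, which 9.66% of genes reached. Within a virus the count in Gai was 0 with Cre virus, where 0.238% of genes passed, and 0 with empty virus, where 0.119% passed. In Gaq it was 1 member, Lif, with each virus, where 3.37% passed with Cre and 2.65% with empty virus. In Ga13 it was Socs3 with Cre virus, where 5.37% passed, and Lif with empty virus, where 3.88% passed. The members' median log2 change was -0.07 in Gai, 0.04 in Gaq and 0.07 in Ga13, against -0.00, -0.01 and -0.00 for all genes.

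Lif passed in Gaq and in Ga13. In Gaq it had 240, 276 and 281 CPM in stimulated fibroblasts with Cre virus, against 345, 352 and 354 CPM in unstimulated ones. With empty virus the Gaq values were 329, 379 and 379 CPM in stimulated cells, against 477, 480 and 453 CPM in unstimulated cells. Within each virus the groups did not overlap, and Lif fell by 0.35 ± 0.04 on the log2 scale, 1.27-fold, with an adjusted p of 2.9e-07. In Ga13 it had 247, 278 and 299 CPM in stimulated cells with Cre virus, against 314, 341 and 323 CPM in unstimulated ones. With empty virus the Ga13 values were 226, 241 and 250 CPM, against 294, 323 and 371 CPM. These groups did not overlap within a virus either, and Lif fell by 0.32 ± 0.06 over both viruses (adjusted p 0.0127). With empty virus alone Lif fell by 0.43 ± 0.09 in Ga13 (adjusted p 0.03), a call lost in 6 of 12 fits with 1 library left out (up to 0.1), those without any replicate of the stimulated empty group, replicate 2 of the unstimulated empty group, replicate 2 of the stimulated Cre group or replicate 3 of the unstimulated Cre group. With Cre virus alone it differed by -0.20 ± 0.09 (0.288). The difference between those responses, 0.22 ± 0.13, did not pass.

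In Gai the replicate 1 libraries stood apart for Lif too. It had 324, 369 and 426 CPM in stimulated Gai cells with Cre virus, against 352, 545 and 588 CPM in unstimulated ones, replicate 1 first each time. With empty virus it had 243, 407 and 401 CPM, against 294, 567 and 516 CPM. Replicate 1 was the lowest library of each of the 4 groups. Over all libraries the change was -0.38 ± 0.22 with an adjusted p of 0.661. With replicate 1 left out of every group, an alternative chosen after seeing the data, Lif fell by 0.46 in Gai (adjusted p 2.54e-06) and Socs3 fell by 0.22 (0.0342), while 703 genes passed in place of 179. Same-numbered Gai libraries deviated together, as did some of different numbers, with correlations of up to 0.433. A fit that blocked on replicate number was also made, in which 797 genes and 1 member passed. That member was Il11, at 0.21 with an adjusted p of 0.0202, against 0.22 ± 0.12 and 0.611 without the block, while Lif had a blocked adjusted p of 0.118. Il6 shared the replicate 1 pattern at rest, with 111 CPM in replicate 1 and 181 and 223 CPM in replicates 2 and 3 of unstimulated cells with Cre virus, and 104 CPM against 225 and 188 CPM with empty virus.

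Socs3 rose in Ga13 fibroblasts. It had 53.1, 51.0 and 54.4 CPM in stimulated cells with Cre virus, against 28.3, 34.5 and 34.7 CPM in unstimulated ones. Those with empty virus had 41.6, 44.3 and 44.4 CPM in stimulated cells, against 38.5, 33.8 and 42.4 CPM in unstimulated cells. The groups with Cre virus did not overlap, whereas with empty virus 1 stimulated library, at 41.6 CPM, fell below the highest unstimulated one. The mean rise was 0.48 ± 0.05 on the log2 scale, 1.4-fold (adjusted p 3.98e-08). It was 0.74 ± 0.07 in cells with Cre virus (adjusted p 8.46e-09) and 0.22 ± 0.08 in cells with empty virus (0.124). The Cre response minus the empty-virus response was 0.52 ± 0.11 with an adjusted p of 0.0436, and Socs3 was the 1 member of 10 among the 0.0821% of genes that passed. This call was lost in 10 of 12 fits with 1 library left out, all but those without replicate 2 of the unstimulated empty group or replicate 3 of the unstimulated Cre group, with adjusted p up to 0.217 and differences of 0.44 to 0.60. At rest Socs3 differed by -0.24 ± 0.08 between Cre and empty virus (adjusted p 0.795), and under TRAP-6 by 0.28 ± 0.07 (0.206).

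Socs3 passed in neither of the other fibroblast lines in the main fits, although it did in Gaq with the replicate number as a block. Gaq cells with Cre virus had 56.4, 64.2 and 44.7 CPM when stimulated, against 36.4, 42.6 and 34.4 CPM when unstimulated, and these groups did not overlap (change 0.59 ± 0.20, adjusted p 0.248). Gaq cells with empty virus had 53.3, 65.5 and 47.2 CPM when stimulated, against 55.4, 58.1 and 39.8 CPM when unstimulated, and these did overlap (0.17 ± 0.20, 0.835). The mean Gaq change was 0.38 ± 0.14, with a 95% interval of 0.05 to 0.71, an unadjusted p of 0.0285 and an adjusted p of 0.232. The Gai change was -0.03 ± 0.18, with a 95% interval of -0.43 to 0.38 and an adjusted p of 0.987. The Ga13 value of 0.48 lies inside the Gaq interval and above the Gai one. The Gaq response with Cre virus minus that with empty virus passed for 0 members, where 0.161% of genes passed, and 1 member, Il6 at 0.57 ± 0.21 (adjusted p 0.678), had an unadjusted p under 0.05, which 6.84% of genes reached. In Gai 0% of genes passed and 0 members.

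Il6 and Il11, which rose most in astrocytes, passed in no fibroblast line in the main fits, which had no replicate block. With the block Il11 passed in Gai (edgeR adjusted p 0.0202) and Il6 in Gaq. Il6 in Ga13 had 78.9, 98.6 and 109 CPM in stimulated cells with Cre virus, against 45.7, 54.2 and 70.3 CPM in unstimulated ones. Ga13 cells with empty virus had 60.5, 63.1 and 81.8 CPM when stimulated, against 48.1, 56.4 and 78.8 CPM when unstimulated. With Cre virus the Ga13 groups did not overlap, and with empty virus they did. The mean change was 0.50 ± 0.16 (adjusted p 0.119 by edgeR and 0.0431 by DESeq2). In Gaq Il6 had 81.4, 90.3 and 102 CPM in stimulated cells with Cre virus, against 60.01, 70.1 and 67.1 CPM in unstimulated ones, and 62.2, 77.4 and 90.2 CPM against 69.4, 90.7 and 84.5 CPM with empty virus. Its change was 0.23 ± 0.10 in Gaq (adjusted p 0.326) and -0.17 ± 0.24 in Gai (0.925). Within Cre virus alone the Gaq change of 0.52 ± 0.15 had an adjusted p of 0.136, or 0.0213 by DESeq2 and 0.0292 without replicate 1 of the stimulated empty-virus group. Il11 changed by 0.22 ± 0.12 in Gai, 0.05 ± 0.15 in Gaq and 0.26 ± 0.15 in Ga13, with adjusted p of 0.611, 0.92 and 0.436. Its upper 95% limits, 0.48, 0.40 and 0.61, lie far below the astrocyte change of 3.67. Clcf1 changed by -0.06 ± 0.09, -0.05 ± 0.06 and -0.10 ± 0.05, with no call.

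**Figure D4:**
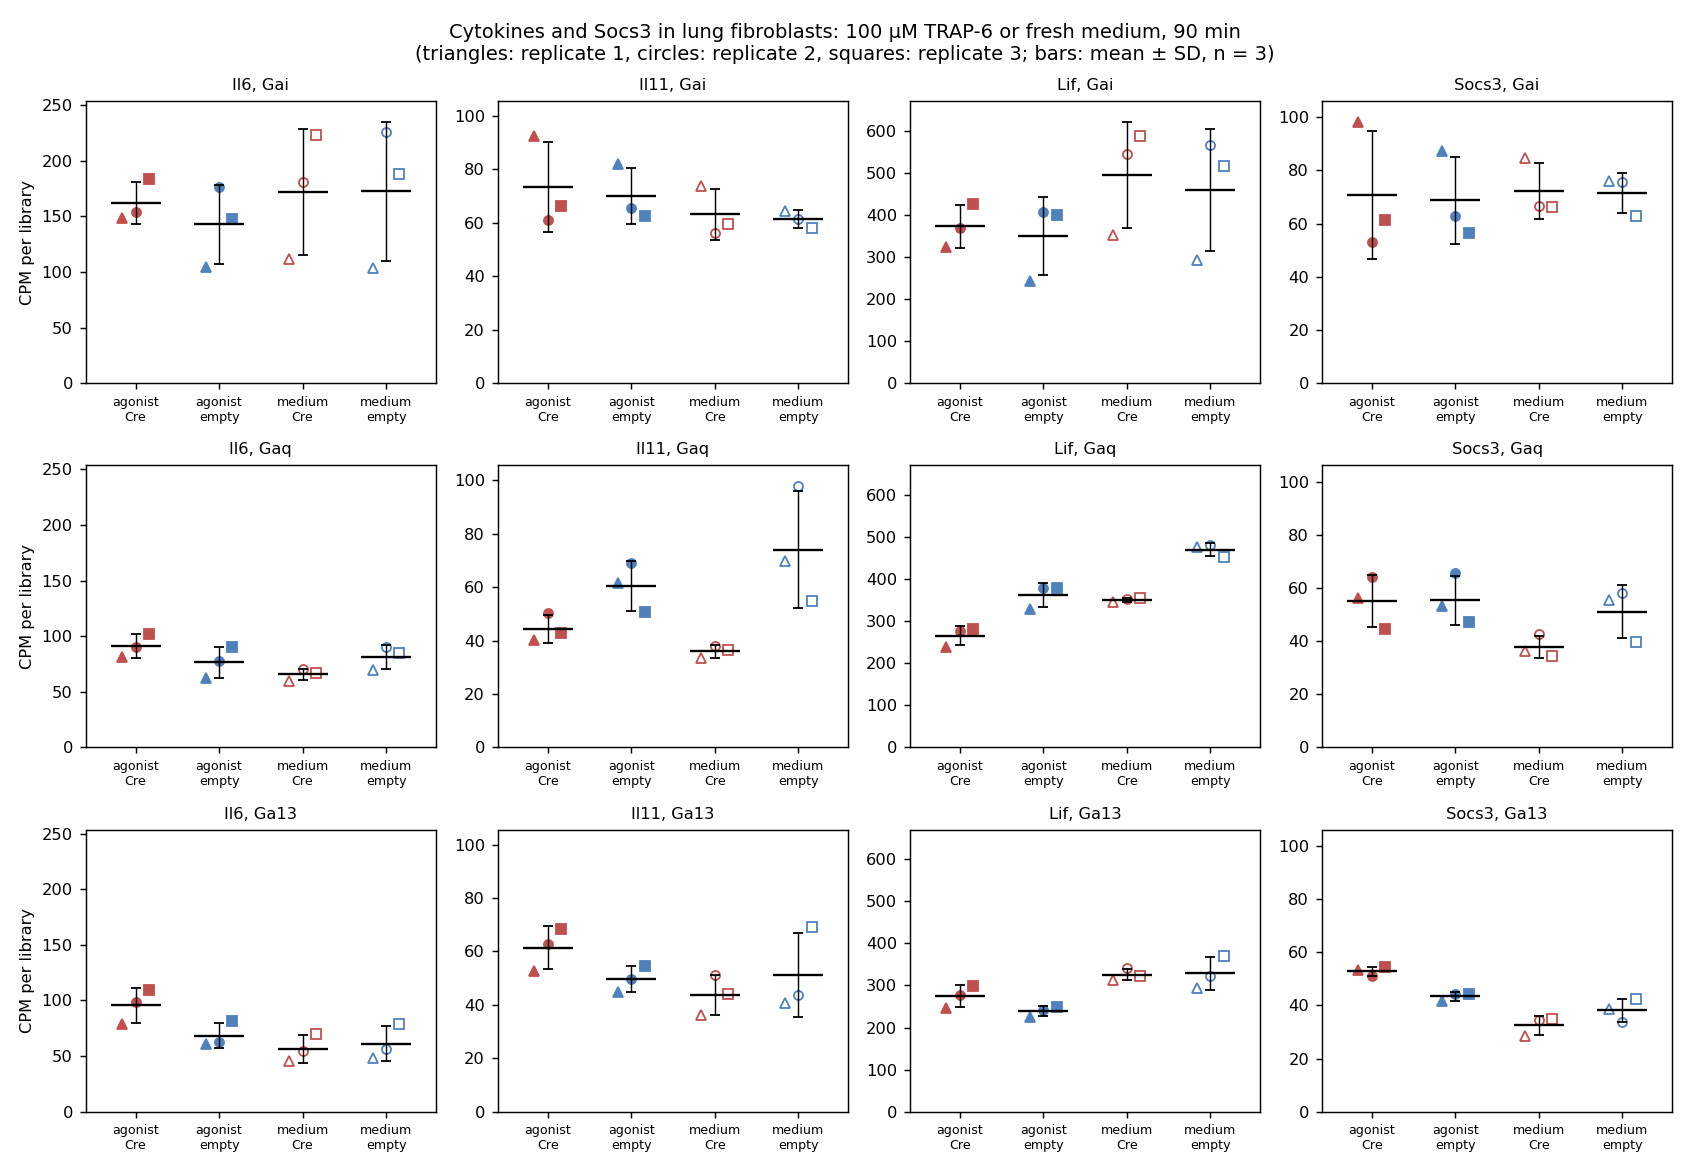
Level of Il6, Il11, Lif and Socs3 in every fibroblast library, in CPM on axes that start at 0 and are shared down a column, by agonist (filled) or medium alone (open) and by virus (red Cre, blue empty); triangles are replicate 1, circles replicate 2 and squares replicate 3, and bars are the mean ± SD of 3 libraries. Gai triangles lie lowest for Il6 and Lif and highest for Il11 and Socs3. Stimulated Lif lies below unstimulated Lif within each virus in Gaq and Ga13, and within each state red Gaq symbols lie below blue ones for Lif.

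Receptor chains moved in Gaq and Ga13. Il6ra rose by 0.33 ± 0.08 in Gaq, to 19.5, 17.0 and 19.0 CPM in stimulated cells with Cre virus, against 16.2, 15.5 and 12.0 CPM in unstimulated ones, and 17.1, 15.9 and 14.3 CPM against 14.3, 11.6 and 13.9 CPM with empty virus (adjusted p 0.00988). The stimulated Il6ra libraries in Gaq lay above the unstimulated ones within each virus, at the closest 14.3 CPM against 14.27 CPM with empty virus. In Ga13 Il6ra rose by 0.25 ± 0.07 (adjusted p 0.0336), a call lost in 8 of 12 fits with 1 library left out (up to 0.128) and held without replicate 1 of the stimulated empty, replicate 3 of the unstimulated empty, replicate 2 of the stimulated Cre or replicate 3 of the unstimulated Cre group. Il6ra differed by 0.07 ± 0.16 in Gai. Lifr fell by 0.35 ± 0.08 in Ga13 (adjusted p 0.0029). It had 9.34, 10 and 9.59 CPM in stimulated cells with Cre virus, against 13.01, 11.6 and 12.4 CPM in unstimulated ones, and 8.13, 7.75 and 9.12 CPM against 11.2, 11.8 and 10.6 CPM with empty virus. These Lifr groups did not overlap. Lifr differed by -0.13 ± 0.10 in Gai and -0.02 ± 0.09 in Gaq. Il6st, Osmr and Stat3 passed in no fibroblast line, with changes of -0.10 to 0.08, -0.08 to 0.03 and -0.01 to 0.06.

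The TRAP-6 responses of the 3 fibroblast lines were then compared in 1 fit of 36 libraries over 16749 genes. Gai minus Gaq and Gai minus Ga13 passed for 0 members each, where 0.137% and 0.316% of genes passed, and Ga13 minus Gaq for 0 members and 0% of genes. Unadjusted p-values under 0.05 were found for 0, 2 and 1 members, where 5.51%, 7.73% and 5.08% of all genes had one, and DESeq2 called 0 in each. The members with the widest differences were Il6, at -0.66 ± 0.26 for Gai minus Ga13 (95% interval -1.20 to -0.13, adjusted p 0.507), and Socs3, at -0.50 ± 0.20 for the same pair (-0.92 to -0.09, 0.528). Lif differed by -0.03 ± 0.19, -0.06 ± 0.19 and 0.03 ± 0.19, in the order Gai minus Gaq, Gai minus Ga13 and Ga13 minus Gaq. With the replicate number as a blocking term, Gai minus Ga13 passed for 2 members, Il6 at -0.63 (adjusted p 0.0262) and Socs3 at -0.53 (0.0226). Of all genes 288 then passed, against 53 without the block.

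The same pathway lists were counted in fibroblasts. Of the 14 inhibitors, Socs2 fell in all 3 lines, by 0.39 ± 0.09 in Gai (adjusted p 0.0402), 0.22 ± 0.06 in Gaq (0.0113) and 0.33 ± 0.05 in Ga13 (4.03e-05). Socs5 fell by 0.40 ± 0.04 in Gaq (8.34e-08) and by 0.40 ± 0.04 in Ga13 (2.39e-08), and Socs6 rose by 0.16 ± 0.05 in Ga13 (0.0441). Of 12 transducers, the phosphatase Ptpn11 rose in Gaq (0.11 ± 0.03, adjusted p 0.0202) and the adaptor Shc1 fell in Ga13 (-0.10 ± 0.03, 0.0121). Among 19 Stat3 target genes 2 rose in Gai, 6 rose and 2 fell in Gaq, and 7 rose and 1 fell in Ga13. Of all genes 0.732% rose and 0.388% fell in Gai, 3.78% and 1.83% in Gaq, and 4.69% and 3.69% in Ga13. Myc, which fell in astrocytes, rose in Gai, Gaq and Ga13 by 0.33 ± 0.05, 0.50 ± 0.04 and 0.64 ± 0.03 (adjusted p 0.00404, 1.49e-12 and 5.41e-18). The survival factor Mcl1 rose by 0.28 ± 0.05, 0.34 ± 0.03 and 0.35 ± 0.03, and the kinase Pim1 rose by 0.52 ± 0.04 in Gaq and 0.59 ± 0.04 in Ga13. Bcl2l1, another survival factor, fell by 0.27 ± 0.04 in Gaq (adjusted p 1.89e-05), and Fgl2 rose by 0.68 ± 0.07 in Ga13 (7.42e-10). The list medians were -0.08, -0.02 and 0.02.

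Genes on the marker lists of other cells also moved under TRAP-6. In Ga13, smooth muscle and pericyte markers summed to 2792 to 2918 CPM in stimulated cells with Cre virus, against 2526 to 2657 CPM in unstimulated ones, and to 2946 to 3145 CPM against 2605 to 2855 CPM with empty virus. Of those 6 markers Acta2 rose (0.23 ± 0.03) and Cspg4 fell (-0.25 ± 0.05). Oligodendrocyte lineage markers, which include Pdgfra and Cspg4, summed in Ga13 to 364 to 387 CPM against 403 to 438 CPM with Cre virus and to 335 to 370 CPM against 418 to 455 CPM with empty virus, and 3 of 5 tested fell. In Gaq the same list summed to 393 to 421 CPM in stimulated cells against 446 to 470 CPM in unstimulated cells with Cre virus, and to 382 to 388 CPM against 426 to 443 CPM with empty virus, and 1 of 5 fell. Smooth muscle markers in Gaq summed to 1876 to 2117 CPM against 1718 to 1821 CPM with Cre virus and to 1815 to 1864 CPM against 1707 to 1815 CPM with empty virus, and 2 of 6 rose. Of 7 astrocyte markers tested Gja1 rose in each line, by 0.37 ± 0.05 in Gai, 0.41 ± 0.04 in Gaq and 0.55 ± 0.04 in Ga13, and of 5 mesothelium markers Wt1 rose in Gaq (0.46 ± 0.08) and Ga13 (0.43 ± 0.04). Macrophage markers had 0 calls in the 3 lines. Olig1, Olig2 and Mog had no counts in Gaq or Ga13. Pdgfra, which is also on the fibroblast list, alone had 311 to 397 CPM in Gaq and 269 to 378 CPM in Ga13. Gfap stood at no more than 1.19 CPM in any fibroblast library. Whether the cell types themselves shifted was not tested. The part of these shifts in the members' responses was not tested.

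Cre virus against empty virus was compared within each state, and members passed in Gaq fibroblasts. Il11, Lif and Clcf1 were lower and Il6st and Osmr higher in unstimulated cells with Cre virus, and Lif, Clcf1, Il6st, Osmr and Stat3 passed in stimulated cells. That is 5 of 10 members in each state, where 3.41% of genes passed in stimulated and 2.65% in unstimulated cells. In Gai and Ga13 the count was 0 of 10 in each state by edgeR and by DESeq2, with 0 Gai members in either state and 1 Ga13 member in each at an unadjusted p under 0.05. That level was reached by 2.18% and 2.55% of Gai genes and 7.94% and 4.94% of Ga13 genes in stimulated and unstimulated cells, so 1 of 10 is near the background. After adjustment 0% of Gai genes and 0.0568% and 0.0126% of Ga13 genes passed, in stimulated and unstimulated cells.

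Lif was lower with Cre virus in both states of Gaq, with the values given above. It fell by 0.44 ± 0.05 in stimulated cells (1.36-fold, adjusted p 7.33e-06) and by 0.42 ± 0.05 in unstimulated cells (1.34-fold, 1.7e-05), and the Cre and empty libraries did not overlap in either state. Clcf1 had 41.6, 41.4 and 51.8 CPM in stimulated Gaq cells with Cre virus, against 59.5, 59.4 and 60.8 CPM with empty virus. At rest Clcf1 had 47.0, 45.6 and 49.2 CPM with Cre virus, against 63.8, 73.1 and 55.8 CPM with empty virus. Again no Cre library reached an empty one. Clcf1 fell by 0.41 ± 0.08 (adjusted p 0.00497) and 0.43 ± 0.08 (0.00326) in stimulated and unstimulated cells. The stimulated Clcf1 call was lost without replicate 1 or replicate 2 of the stimulated Cre group (adjusted p 0.0549 and 0.0526). Il11 had 33.4, 38.1 and 36.6 CPM in unstimulated Gaq cells with Cre virus, against 69.7, 97.8 and 54.7 CPM with empty virus, and 40.2, 50.3 and 43.0 CPM against 61.5, 69.1 and 50.8 CPM in stimulated cells. The Il11 libraries did not overlap within a state. The unstimulated fall of 1.03 ± 0.22, 2.04-fold, had an adjusted p of 0.0492 and lost the call in 11 of 12 fits with 1 library left out (up to 0.191), all but that without replicate 3 of the unstimulated empty group. The stimulated Il11 difference was -0.44 ± 0.22 (0.442).

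Of the 4 receptor chains Il6st and Osmr were higher with Cre virus in both states, and Il6ra and Lifr passed in neither. Il6st had 717, 743 and 589 CPM in stimulated Gaq cells with Cre virus, against 462, 465 and 435 CPM with empty virus. In unstimulated cells it had 659, 687 and 587 CPM with Cre virus, against 473, 431 and 460 CPM with empty virus. The Il6st libraries of the viruses did not overlap, and it rose by 0.60 ± 0.09 (1.51-fold, adjusted p 0.00704) in stimulated and by 0.51 ± 0.09 (1.42-fold, 0.0202) in unstimulated cells. The unstimulated Il6st call was lost in 4 of 12 fits with 1 library left out (up to 0.114), those without replicate 1, 2 or 3 of the unstimulated empty group or replicate 1 of the unstimulated Cre group. Osmr had 306, 281 and 280 CPM in stimulated cells with Cre virus, against 243, 247 and 242 CPM with empty virus. In unstimulated cells Osmr had 287, 301 and 281 CPM, against 246, 241 and 254 CPM. The Osmr libraries did not overlap either, with rises of 0.25 ± 0.05 (adjusted p 0.000548) and 0.24 ± 0.05 (0.00138). Stat3 rose by 0.17 ± 0.05 in stimulated cells (adjusted p 0.0272), a call lost in 5 of 12 fits with 1 library left out (up to 0.23), those without any replicate of the stimulated empty group or replicate 1 or 2 of the stimulated Cre group. In unstimulated cells Stat3 differed by 0.10 ± 0.05 (0.361).

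**Figure D5:**
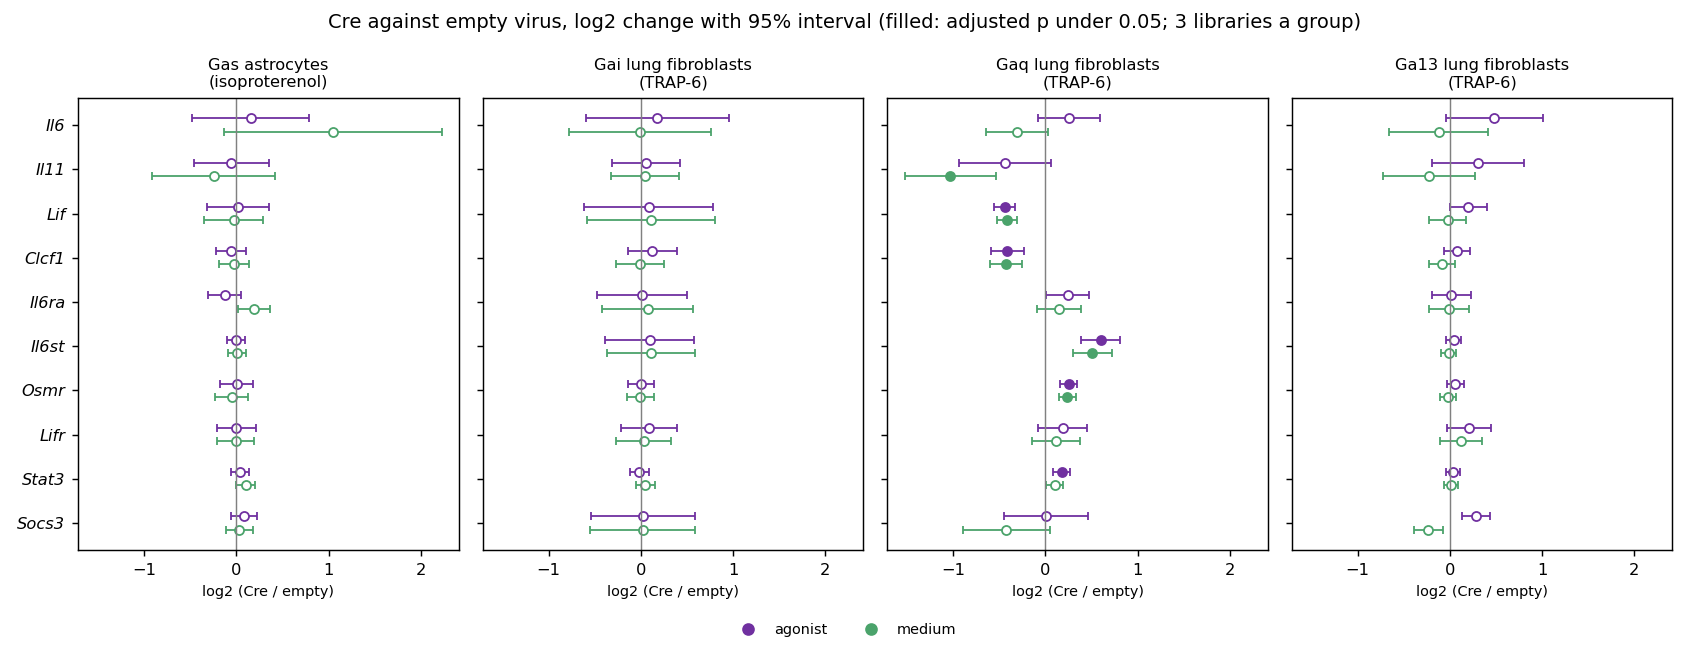
Log2 change of each gene with Cre virus against empty virus, by line and by state (purple stimulated, green unstimulated), with 95% intervals; filled points passed an adjusted p of 0.05 and each group had 3 libraries. In Gaq fibroblasts Lif and Clcf1 lie near -0.4 and Il6st near 0.5 to 0.6 in both states, and no point of the Gas, Gai or Ga13 lines is filled.

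The Cre difference of Gaq was set against that of the other fibroblast lines, as a mean over both states, in the fit of 36 libraries, a comparison added after seeing the data. Gaq minus Gai passed for 2 of 10 members, where 0.585% of genes passed, with Osmr at 0.25 ± 0.05 (adjusted p 0.0144) and Clcf1 at -0.47 ± 0.11 (0.0305). Gaq minus Ga13 passed for 1 of 10 members, where 0.609% of genes passed, with Osmr at 0.23 ± 0.05 (0.0293). The Clcf1 difference from Gai was lost in 13 of 36 fits with 1 library left out, 9 of them Gaq libraries and 4 Gai libraries (up to 0.0775). The Osmr difference from Ga13 was lost in 10 of 36, 5 of them Gaq libraries and 5 Ga13 libraries (up to 0.0927). Lif, at -0.52 ± 0.19 and -0.51 ± 0.19 (adjusted p 0.364 and 0.316), and Il6st, at 0.46 ± 0.15 and 0.54 ± 0.15 (0.237 and 0.0973), did not pass against Gai or Ga13. Il11, at -0.78 ± 0.21 and -0.77 ± 0.21 (0.113 and 0.103), did not pass either, nor did Clcf1 against Ga13, at -0.41 ± 0.11 (0.0708). These calls changed with the replicate number as a blocking term. Of all genes, 479 then passed for Gaq minus Gai and 631 for Gaq minus Ga13, against 98 and 102 without it. Against Gai, where the numbers were treated as pairing the libraries, Il11 (-0.75, adjusted p 0.00253), Lif (-0.55, 0.00158), Il6st (0.45, 0.00192) and Stat3 (0.13, 0.0399) then passed too. Against Ga13, Il11 (-0.76, 0.00185), Lif (-0.52, 0.00223), Il6st (0.54, 0.000224) and Clcf1 (-0.41, 0.00055) did. DESeq2 also called Il11 against Gai (0.0164), and Clcf1 (0.0131), Il6st (0.0199) and Il11 (0.0218) against Ga13. Of all genes it called 178 against Gai and 201 against Ga13. These comparisons share the Gaq libraries.

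Other genes moved beside these members in Gaq. The inhibitor Cish, 1 of 14, was lower with Cre virus, with a log2 change of -0.53 ± 0.14 in stimulated cells (adjusted p 0.0315) and -0.52 ± 0.14 in unstimulated cells (0.0375). It is named after its values were seen. Of 19 Stat3 target genes 3 rose and 4 fell in stimulated cells, and 2 rose and 4 fell in unstimulated cells, with medians of -0.10 and -0.11. Of all genes 1.99% rose and 1.42% fell in stimulated cells, and 1.28% rose and 1.37% fell in unstimulated cells. Fibroblast markers summed to 56710 to 62410 CPM in stimulated Gaq cells with Cre virus, against 50690 to 52140 CPM with empty virus, and to 56910 to 61150 CPM against 50680 to 52530 CPM in unstimulated cells. Of the 8 fibroblast markers 5 rose in stimulated and 3 in unstimulated cells and 0 fell. Macrophage markers overlapped, at 81.5 to 103 CPM with Cre virus against 85.7 to 110 CPM with empty virus in stimulated cells and at 86.5 to 106 CPM against 88.5 to 115 CPM in unstimulated cells, with none at 0. Mesothelium markers summed to 514 to 561 CPM in stimulated Gaq cells with Cre virus, against 381 to 469 CPM with empty virus, and to 466 to 529 CPM against 363 to 453 CPM in unstimulated cells. Of those 5 markers Upk3b rose, by 0.39 ± 0.06 in stimulated and 0.34 ± 0.06 in unstimulated cells. The part of such marker shifts in the Gaq results was not tested.

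The genes with responses most like those of each member were found by the distance between log2 changes over the 8 responses (4 lines by 2 viruses), among 12485 genes. For Il11 the nearest was the deiodinase gene Dio2 (distance 0.422), followed by Tinf2 (0.821) and the kinase gene Sik1 (0.91). Il6 shared Dio2 (0.824) and Sik1 (0.894), followed by Gls2 (1.07). Dio2 changed by 3.64 with Cre virus and 3.57 with empty virus in astrocytes and by -0.01 and -0.02 in Gai fibroblasts. In Gaq it changed by 0.41 with Cre virus and -0.04 with empty virus, and in Ga13 by 0.53 and 0.06. For Lif the nearest were the clock gene Bmal1 (0.29), Arl4c (0.386) and Klf10 (0.471), all lower in each of the 8 responses. For Socs3 they were Inhba (0.271), which encodes an activin subunit, Dclk1 (0.31) and Best3 (0.365). Members with small responses had neighbours at short distances that carry little information, such as Ddx52 for Clcf1 (0.0843). The nearest gene was Atosb for Il6ra (0.235) and Zfp951 for Lifr (0.219).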

How the data were processed

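Counts of reads per gene, 1 table for each of the 4 lines, are used as the authors deposited them. Per the submitters' processing notes, the tools were fastp, Subread and featureCounts with genome build GRCm39; their versions, the annotation and the strandedness are not given in the sources used here. The biosensor row, which names no gene, was kept in library sizes, in the fits and in the adjustment of p-values. It was left out of the counts of genes. Genes were kept with filterByExpr (minimum count 10, minimum total 15), scaled by TMM and tested with edgeR 4.0.16 (robust quasi-likelihood test, R 4.3.3, limma 3.58.1), 1 fit per line and 1 fit of the 36 fibroblast libraries, with Benjamini-Hochberg adjustment over all genes and a threshold of 0.05. CPM were computed from library totals, and CPM per kb from exon lengths of GENCODE M21 on GRCm38, which differs from the build of the counts. Errors of log2 changes are standard errors, and intervals are 95%.

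The text names all 10 members, up to 4 genes per list and line by p-value, and the 3 genes most like each member; exceptions are marked. The members and lists were chosen with earlier results of these data known. Alternatives were DESeq2 1.42.0, its size factors (RLE) in edgeR, no filter, the replicate number as a block and leaving out each library. The comparison of Cre effects between lines and the fit without Gai replicate 1 were added after seeing the data. The edgeR steps were tested on simulated data. Replicates of a group differed by more than sampling noise (chi-square per degree of freedom at least 2.62). Deviations of same-numbered libraries from their group means correlated at 0.110 to 0.561 in Gai, -0.033 to 0.208 in Gas, -0.035 to 0.186 in Gaq and -0.011 to 0.206 in Ga13, over genes with a mean log2 CPM over 1. Over all tested genes the lowest Gai correlation was 0.031. Differently numbered Gai libraries correlated at up to 0.433 over genes with a mean log2 CPM over 1. Over those genes own numbers correlated best for 3, 4, 5 and 8 of 12 libraries in Gas, Gai, Gaq and Ga13. Gai alone was read as paired, from the data and not from the labels, and this reading is uncertain. No main fit had a replicate block, in Gai or in the fit of 36 libraries, so this pairing enters the blocked alternatives only. RefSeq gene spans overlap those of other genes for Il6 (A230098N10Rik) and Il11 (Tmem190), and also for Clcf1, Il6ra and Stat3. For Il6 and Il11 no overlap of exons is annotated in GENCODE M21. The annotation of the counts is not given, so whether reads were shared is not known. Some genes of the lists and some most alike genes are not reported here.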

Additional observations from a re-analysis of the deposited data

Results flagged for a closer look

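A pair of members had a Cre effect that differed between fibroblast lines in a test of the difference itself, with edgeR's quasi-likelihood test over 36 libraries and Benjamini-Hochberg adjustment. The Clcf1 difference, Gaq minus Gai, was -0.47 ± 0.11 on the log2 scale (adjusted p 0.0305), and it was lost in 13 of 36 fits with 1 library left out. The Osmr difference was 0.25 ± 0.05 for Gaq minus Gai (0.0144), lost in 0 of 36 such fits with adjusted p up to 0.0476. For Gaq minus Ga13 the Osmr difference was 0.23 ± 0.05 (0.0293), lost in 10 of 36. In Ga13 fibroblasts the Socs3 response to TRAP-6 differed between Cre and empty virus by 0.52 ± 0.11 (adjusted p 0.0436), which was lost in 10 of 12 fits with 1 library left out.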

How the results depend on the processing

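In astrocytes 7 members passed over both viruses, and 7 to 9 passed under every alternative. Of all genes 4211 passed there in the main fit, 4231 with RLE, 4007 with DESeq2, 4182 with no filter and 4413 with the block. With 1 library left out, 3650 to 4251 genes passed. Of 46 called member differences 0 changed sign in any alternative. Of 206 that passed in no fit of all libraries and not without Gai replicate 1, 23 changed sign in a fit of all libraries and 100 when a library was left out. The Gai Socs3 change ran from -0.18 to 0.063 in other fits. It is not among the 206, since it fell further and passed without Gai replicate 1. With the replicate number as a block, the members called were 1 in Gai (0 without it), 4 in Gaq (2), 4 in Gaq with Cre virus (1), 4 in Ga13 with empty virus (1), 3 in Ga13 with Cre virus (1), 3 for stimulated Cre against empty virus in Ga13 (0), 2 for the Cre minus empty response in Gaq (0) and 2 in Ga13 (1), 2 for TRAP-6 Gai minus Ga13 (0), 6 for the Cre effect Gaq minus Gai (2) and 5 for Gaq minus Ga13 (1). The members it added to the mean responses included Il6 (0.23) and Socs3 (0.37) in Gaq. The block also raised the count of all genes called. That count went from 871 to 1264 of 15528 genes in Gaq and from 523 to 743 in Gaq with Cre virus. In Ga13 with empty virus it went from 614 to 916 of 15835 genes, and the other comparisons are given below. Own numbers correlated best for 7, 4, 5 and 6 of 12 libraries in Gas, Gai, Gaq and Ga13, over all tested genes. Only Gai was read as paired, and its main fits had no block. DESeq2 called 2 members in Gaq with Cre virus, 2 in Ga13 with each virus and 4 in Gaq minus Ga13. Of all genes it called 525 in Gaq with Cre virus, and 868 and 643 in Ga13 with Cre and empty virus. No filter gave 2 members in Gaq with Cre virus, 2 in Ga13 with Cre virus, 1 for stimulated Cre against empty virus in Ga13 and 2 in Gaq minus Ga13, and RLE gave 2 in Ga13 with empty virus. All genes called were 627 in Gaq and 983 in Ga13 with Cre virus for no filter, and 616 for RLE. Without Gai replicate 1, Gai gave 2 members in the mean, 1 with Cre virus and 1 with empty virus, where 703, 289 and 222 genes passed. With 1 library left out, members called ranged over 1 to 2 in Gaq with Cre virus, 3 to 5 (stimulated) and 3 to 4 (unstimulated) for Cre against empty virus in Gaq, 0 to 2 in Ga13 with empty virus, 0 to 1 for the Ga13 response difference, 1 to 3 in Gaq minus Gai and 0 to 3 in Gaq minus Ga13. All genes called then ranged over 456 to 650 in Ga13 with empty virus and 66 to 129 in Gaq minus Gai, with the others below. The cause of these shifts was not tested.

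Counts of all genes called moved by over 1.5 times in several comparisons, given as main, DESeq2, no filter and block. They were 179, 288, 445 and 797 in Gai, 38, 106, 202 and 355 in Gai with Cre virus, and 19, 81, 133 and 254 in Gai with empty virus. The Gai Cre against empty counts were 0, 2, 9 and 9 in stimulated and 0, 1, 6 and 11 in unstimulated cells. For Ga13 they were 9, 30, 63 and 112 and 2, 7, 33 and 33, and 13, 60, 86 and 138 for the response difference, which had 25, 40, 67 and 91 in Gaq. For line differences they were 23, 46, 57 and 161 (Gai minus Gaq), 53, 90, 121 and 288 (Gai minus Ga13), 0, 0, 2 and 7 (Ga13 minus Gaq), 98, 178, 191 and 479 (Cre effect, Gaq minus Gai) and 102, 201, 248 and 631 (Gaq minus Ga13). The block alone moved Gaq with empty virus (411 genes to 762), Gaq Cre against empty virus (529 to 944 stimulated, 411 to 752 unstimulated) and Ga13 with Cre virus (851 to 1357), and no filter moved unstimulated Gas (1 to 13). With 1 library left out, genes called ranged over 261 to 491 in Gaq with empty virus (411 with all) and 333 to 577 with Cre virus (523), and for Cre against empty virus in Gaq over 283 to 642 stimulated (529) and 262 to 523 unstimulated (411). For the response difference they ranged over 7 to 43 in Gaq (25) and 3 to 22 in Ga13 (13), and for line differences over 5 to 49 (23), 33 to 104 (53) and, for the Cre effect Gaq minus Ga13, 60 to 164 (102). Ranges were 15 to 65 (38) and 10 to 37 (19) in Gai with Cre and empty virus, and 0 to 15 where 9 or fewer genes passed. The shares of all genes printed beside the members' counts move with them.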
